A study of Mus musculus with 12 samples.

Results

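The data described here are the transcripts of 44 genes of fatty acid and phospholipid synthesis, of 34745 genes in the deposited table, in MLE-12 cells injured by lipopolysaccharide (LPS) or by hyperoxia and treated or not with exosomes of M2 macrophages (M2-Exo). The members were taken by gene name from a fixed list: the transcription factors of the pathway, the enzymes that supply its precursors, those that build, elongate and desaturate fatty acids, those that place them in triacylglycerol and phospholipids, and 3 proteins that bind, store or release fatty acids. All 44 names were in the table, and 43 passed the filter on low counts in each comparison. Mlxipl, which encodes the carbohydrate-responsive factor ChREBP, had at most 8 counts in any library and was not tested.

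Alveolar type II (AT II) cells make surfactant, whose main lipid is a phosphatidylcholine that carries saturated palmitate chains. Cytosolic acetyl-CoA is carboxylated to malonyl-CoA, fatty acid synthase turns these units into palmitate, and elongases and desaturases extend or unsaturate the chain before it enters phosphatidate, diacylglycerol and the choline and ethanolamine phospholipids. Srebf1 encodes the membrane-bound factor SREBP-1, which, once released by proteolysis, raises transcription of most enzymes of the pathway, while the related factor encoded by Srebf2 acts mainly on sterol synthesis.

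MLE-12 is a mouse AT II cell line, and each of the 4 groups held 3 RNA-seq libraries made at 24 h. The LPS group received 100 ng/mL LPS in 21% O2, the Hyp group was kept in 85% O2, and the LPS + M2-Exo and Hyp + M2-Exo groups also received 10 µg/mL of exosomes from the alveolar macrophage line MH-S, polarized with IL-4. There were no uninjured cells, so each M2-Exo comparison is against the same injury alone, and a difference between LPS and Hyp cannot be told apart from a batch between the 2 models. Nothing states that libraries of a group came from separate cultures, so p-values measure the spread between these libraries, which may be technical. The libraries held between 16021833 and 24074616 counts.

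Of the 11 AT II markers, 6 to 8 averaged at least 1 CPM (counts scaled to the size of the library), depending on the group: Nkx2-1 and Abca3 were present, Sftpc lay between 11.3 and 22.5 CPM as group means, and Sftpa1 and Sftpd had at most 1 count in any library. The summed level of the 11 markers was 505 to 566 CPM in LPS, 505 to 548 in LPS + M2-Exo, 310 to 331 in Hyp and 307 to 320 in Hyp + M2-Exo. Of 11 macrophage markers, 8 to 10 averaged at least 1 CPM, depending on the group, with Csf1r, Adgre1, Ptprc and Lyz2 among them, while Arg1 was at or near 0 in all groups and Marco in the hyperoxia groups. The sum of the 11 was 432 to 480 CPM in LPS, 333 to 392 in LPS + M2-Exo, 111 to 117 in Hyp and 85.5 to 127 in Hyp + M2-Exo. In bulk RNA, fewer cells of a kind and less RNA per cell cannot be told apart.

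Levels of different members were compared as the deposited FPKM, which is counts scaled by gene length and depth. Scd2 was the most abundant member, at a mean of 298 FPKM over the 12 libraries, followed by Tecr (145 FPKM), Fads2 (98.2 FPKM), Scd1 (93.5 FPKM), Acly (79.5 FPKM), Fasn (73.5 FPKM) and Fads1 (72.6 FPKM). These 7 members were above 50 FPKM, 19 were above 10 FPKM, 23 lay between 1 and 10 FPKM and 2 were under 1 FPKM. Scd1 and Scd2 place the first double bond in saturated chains, Fads1 and Fads2 add double bonds to polyunsaturated chains, and Tecr is the reductase that ends each round of elongation. The 2 members under 1 FPKM were Mlxipl (0.0163 FPKM) and Acacb (0.0563 FPKM), whose protein makes the malonyl-CoA that restrains fatty acid oxidation, so the carboxylase transcript of these cells was Acaca (8.06 FPKM). Of the paired enzymes, Pcyt1a (9.92 FPKM) exceeded Pcyt1b (3.27 FPKM), while Dgat1 (3.82 FPKM) and Dgat2 (2.41 FPKM) lay close together.

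Summed over all 44 members, transcripts came to 8500 to 8929 CPM in LPS, 8013 to 8065 in LPS + M2-Exo, 5134 to 5308 in Hyp and 5071 to 5494 in Hyp + M2-Exo. The LPS and LPS + M2-Exo libraries did not overlap, nor did either overlap the hyperoxia libraries, whereas the Hyp and Hyp + M2-Exo libraries did. The 4 desaturases made up most of the gap between the models, with 3615 to 3731 CPM in LPS and 1382 to 1465 in Hyp. Among them Scd1 was at means of 480 CPM in LPS and 456 in Hyp, and most of the gap lay in Scd2, at 2672 and 647. The enzymes of malonyl-CoA and palmitate, by contrast, held 1319 to 1451 CPM in LPS, 1154 to 1225 in LPS + M2-Exo, 1060 to 1157 in Hyp and 1065 to 1280 in Hyp + M2-Exo. Precursor supply held 1318 to 1393 CPM in LPS, 1175 to 1199 in LPS + M2-Exo, 884.3 to 916.3 in Hyp and 870.8 to 987.4 in Hyp + M2-Exo, again without overlap between the 2 LPS groups and with overlap between the 2 hyperoxia groups.

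Sequences before the transcription start are shown for 4 members: Elovl6 and Aacs, which fell with M2-Exo in LPS, Fasn, the synthase itself, and Pcyt1a, 1 of 2 members whose window holds the core of the sterol regulatory element. They come from the RefSeq promoter table of build GRCm38.p6, which has entries for 37 of the 44 members. Each is printed 5′ to 3′ on the strand of the gene, up to the base before its start in RefSeq or in the deposited table, whichever lies further upstream, and capitals mark every match to the 4 motifs searched.
Elovl6: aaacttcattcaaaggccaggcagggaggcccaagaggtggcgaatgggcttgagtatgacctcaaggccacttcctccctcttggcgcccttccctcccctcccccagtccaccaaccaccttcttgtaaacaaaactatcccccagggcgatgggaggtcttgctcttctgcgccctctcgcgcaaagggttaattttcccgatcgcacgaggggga
Aacs: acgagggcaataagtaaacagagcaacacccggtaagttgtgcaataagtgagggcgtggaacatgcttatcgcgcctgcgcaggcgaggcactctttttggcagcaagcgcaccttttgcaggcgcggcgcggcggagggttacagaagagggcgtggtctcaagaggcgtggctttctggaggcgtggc
Fasn: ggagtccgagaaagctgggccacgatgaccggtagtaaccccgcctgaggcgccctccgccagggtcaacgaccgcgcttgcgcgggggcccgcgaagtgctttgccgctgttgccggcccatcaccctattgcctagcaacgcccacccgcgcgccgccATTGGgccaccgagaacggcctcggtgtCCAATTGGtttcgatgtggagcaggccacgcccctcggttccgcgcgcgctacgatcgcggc
Pcyt1a: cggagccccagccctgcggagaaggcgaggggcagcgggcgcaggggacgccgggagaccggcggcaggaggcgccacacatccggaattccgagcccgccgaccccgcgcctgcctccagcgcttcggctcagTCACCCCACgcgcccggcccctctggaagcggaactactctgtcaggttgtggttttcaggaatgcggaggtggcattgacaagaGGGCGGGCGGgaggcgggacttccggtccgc
The windows lie at chr3:129532136-129532354 on the plus strand for Elovl6, chr5:125475623-125475813 (plus) for Aacs, chr11:120824548-120824797 (minus) for Fasn and chr16:32430671-32430920 (plus) for Pcyt1a.

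The motifs were the sterol regulatory element core TCACNCCAC, the CCAAT box, the E-box CACGTG and the GC box GGGCGG, each read on both strands in the whole window of 250 bases before and 50 after the start. In the Fasn window CCAAT was found 3 times, 90, 62 and 59 bases before the start, the last 2 matches sharing bases on opposite strands. Pcyt1a held the sterol element core 116 bases before its most upstream start and 2 overlapping GC boxes. The Elovl6 and Aacs windows held none of the 4 strings. Over the 37 members, 2 (5.41%) had the sterol element core, against 1.44% of 27025 genes in the table, 24 (64.9%) had CCAAT against 41.1%, 7 (18.9%) had the E-box against 8.09%, and 26 (70.3%) had the GC box against 38.2%. Some genes have more than 1 window, with 52 for the 37 members and 32851 for the 27025 genes. By window the sterol element core was in 5.77% against 1.24% and CCAAT in 50% against 37.4%. The E-box was in 13.5% against 7.15% and the GC box in 61.5% against 35.7%. The genes in the table were not limited to those expressed in these cells. These shares describe letters in a short window and were not tested. Scd1, Scd2, Fads1, Pcyt2, Fabp5, Dgat1 and Dgat2 had no entry.

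The first comparison asked what M2-Exo changed in cells injured by LPS. Elovl6, which extends palmitate to stearate, Pcyt2, which activates ethanolamine for phosphatidylethanolamine synthesis, and Aacs, which activates acetoacetate for use in lipid synthesis, fell with M2-Exo, and no member rose. Each was tested with edgeR's quasi-likelihood test on the counts, with p-values adjusted by Benjamini-Hochberg over all 13353 genes tested, and a gene with an adjusted p under 0.05 is said to have passed. The 3 members that fell are 6.98% of the 43 tested, while 0.135% of all genes fell and 0.0524% rose. The median log2 fold change was −0.066 over the members and 0.0027 over all genes. Over the members it was −0.025 without LPS library 3 and −0.031 without LPS + M2-Exo library 1.

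Elovl6 was at 128, 125 and 129 CPM in the 3 LPS libraries and at 81.1, 87.7 and 89.8 CPM in the 3 LPS + M2-Exo libraries. All LPS + M2-Exo libraries lay below all LPS libraries, and the level fell by 31.4% (log2 fold change −0.54, SE 0.0458, adjusted p = 0.00416, edgeR). Elovl6 overlaps 2 predicted genes in the table, and the counting is not stated to use strand. Pcyt2 was at 243, 247 and 258 CPM in LPS and at 202, 197 and 197 CPM in LPS + M2-Exo (log2 fold change −0.31, SE 0.0343, adjusted p = 0.0165, edgeR). Aacs was at 228, 225 and 244 CPM in LPS and at 190.2, 176 and 182 CPM in LPS + M2-Exo (log2 fold change −0.33, SE 0.0425, adjusted p = 0.0347, edgeR). As with Elovl6, neither gene had an LPS + M2-Exo library that reached the lowest LPS library.

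The calls for Pcyt2 and Aacs were close to the threshold. Leaving out LPS library 2 or 3, or LPS + M2-Exo library 2 or 3, left Elovl6 as the only member to pass, and so did a fit of all 12 libraries (adjusted p = 0.0438 for Elovl6, 0.0705 for Pcyt2 and 0.087 for Aacs, edgeR). DESeq2 passed 6 members, all lower: those 3, Lpin1, Acss2 and Fasn. It passed 125 of 13353 genes, against 25 in edgeR. With a replicate block in the edgeR fit no member passed, and Elovl6 was just above the threshold (adjusted p = 0.0544, edgeR).

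**Figure D1:**
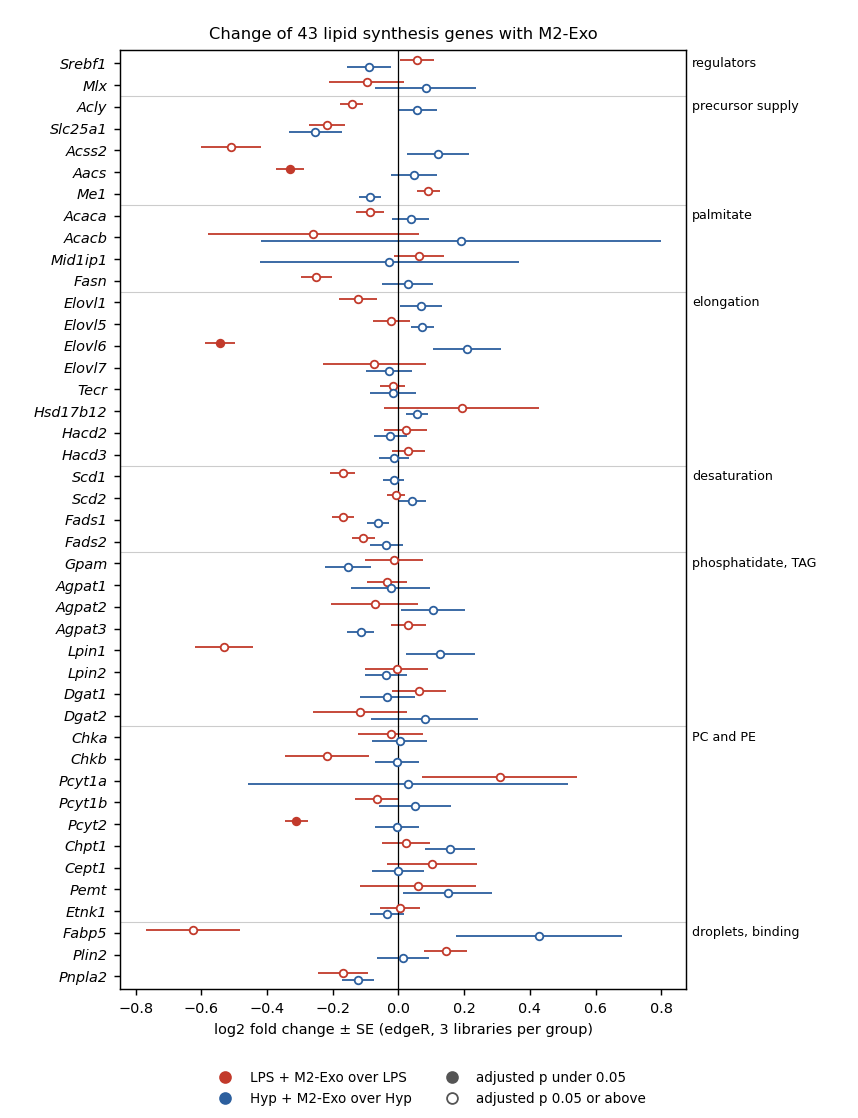
Log2 fold change with M2-Exo (x axis, ± SE from edgeR) of the 43 members tested, grouped by role (y axis), in LPS (red) and in hyperoxia (blue), with filled points where the adjusted p is under 0.05. The filled points are Elovl6 (−0.54), Aacs (−0.33) and Pcyt2 (−0.31) in LPS, and no blue point is filled.

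Further members lay lower in LPS + M2-Exo without passing. At an unadjusted p under 0.05, 12 members (27.9%) were lower and 1 (2.33%) was higher, against 6.1% and 4.99% of all genes. In 14 members (32.6%) every LPS + M2-Exo library lay below every LPS library and in 1 (2.33%) every library lay above, against 11.1% and 5.5% of all genes. By role, all 4 precursor enzymes other than Me1 had an unadjusted p under 0.05 and were lower, as were 3 of 4 desaturases and 1 of 4 enzymes of malonyl-CoA and palmitate, while the count was 1 of 8 in elongation, 1 of 8 in phosphatidate and triacylglycerol synthesis, 1 of 9 in choline and ethanolamine phospholipid synthesis and 1 of 3 among the proteins that bind, store or release lipid.

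Among the precursor enzymes, Acss2, which makes acetyl-CoA from acetate, was at 24.4, 22.4 and 20.1 CPM in LPS and at 15.6, 15.9 and 14.9 CPM in LPS + M2-Exo (log2 fold change −0.51, SE 0.0921, adjusted p = 0.142, edgeR). Acly, which cleaves citrate to acetyl-CoA, and Slc25a1, the mitochondrial carrier that exports the citrate, had log2 fold changes of −0.14 and −0.22 with adjusted p-values of 0.226 and 0.233 (edgeR). Me1, the cytosolic malic enzyme that supplies NADPH, was the exception in this group, with 125, 119.6 and 126 CPM in LPS and 131, 129 and 131 CPM in LPS + M2-Exo (log2 fold change 0.09, adjusted p = 0.407, edgeR). In all 5 genes the 2 groups of libraries did not overlap.

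Fasn, the synthase that makes palmitate, was at 1123, 1226 and 1242 CPM in LPS and at 1037, 975 and 970.2 CPM in LPS + M2-Exo (log2 fold change −0.25, SE 0.0468, adjusted p = 0.155, edgeR). Acaca, which makes malonyl-CoA for it, was at 181, 174 and 193 CPM in LPS and at 171, 164 and 174 CPM in LPS + M2-Exo (log2 fold change −0.09, adjusted p = 0.514, edgeR). For neither gene did the libraries of the groups overlap, though for Acaca the highest LPS + M2-Exo library lay just under the lowest LPS library. Acaca shares 30.4% of its 50-base transcript words with other genes, among them Gm5182, so part of its counts may be divided between them.

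Of the desaturases, Scd1 was at 469, 463 and 508 CPM in LPS and at 417, 419 and 429 CPM in LPS + M2-Exo (log2 fold change −0.17, SE 0.0384, adjusted p = 0.205, edgeR). Fads1, which makes arachidonate and related chains, was at 308, 311 and 313 CPM in LPS and at 282, 268 and 267 CPM with M2-Exo (log2 fold change −0.17, SE 0.0338, adjusted p = 0.159, edgeR). Scd2, at 2637, 2675 and 2703 CPM in LPS, was at 2618, 2604 and 2651 CPM with M2-Exo, and its libraries overlapped (log2 fold change −0.0076, 95% interval −0.0706 to 0.0553). Scd1 and Scd2 encode enzymes of the same reaction, and 4.56% of the Scd1 words and 3.97% of the Scd2 words occur in other genes, among them each other and Scd3 and Scd4.

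In glycerolipid synthesis Lpin1, a phosphatidate phosphatase that yields diacylglycerol, was at 23.9, 22.2 and 22.8 CPM in LPS and at 16.8, 16.2 and 14.1 CPM in LPS + M2-Exo (log2 fold change −0.53, SE 0.0887, adjusted p = 0.11, edgeR). The related Lpin2 had a log2 fold change of −0.0053, and the 7 members of this group other than Lpin1 lay between −0.12 and 0.06. In choline phospholipid synthesis, Pcyt1a, whose enzyme limits phosphatidylcholine synthesis, was at 125, 63.2 and 135 CPM in LPS and at 132, 133 and 129.5 CPM with M2-Exo. LPS library 2 was the low one, and the log2 fold change of 0.31 had an SE of 0.237 (adjusted p = 0.693, edgeR). The kinases Chka and Etnk1 and the transferases Chpt1, Cept1 and Pemt had adjusted p-values of 0.847 or above.

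Of the proteins that bind or store lipid, Fabp5, a fatty acid carrier, was at 9.49, 11.1 and 10.8 CPM in LPS and at 6.31, 5.57 and 8.13 CPM in LPS + M2-Exo (log2 fold change −0.63, SE 0.143, adjusted p = 0.205, edgeR). Plin2, the coat protein of lipid droplets, was at 43.5, 47.2 and 50.4 CPM in LPS and at 54.0, 49.3 and 50.7 CPM with M2-Exo (log2 fold change 0.14, adjusted p = 0.477, edgeR). Its libraries overlapped. Srebf1 itself, at 175, 163 and 167 CPM in LPS and at 184, 163 and 172 CPM with M2-Exo, had a log2 fold change of 0.06 (95% interval −0.0617 to 0.178, adjusted p = 0.744, edgeR).

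**Figure D2:**
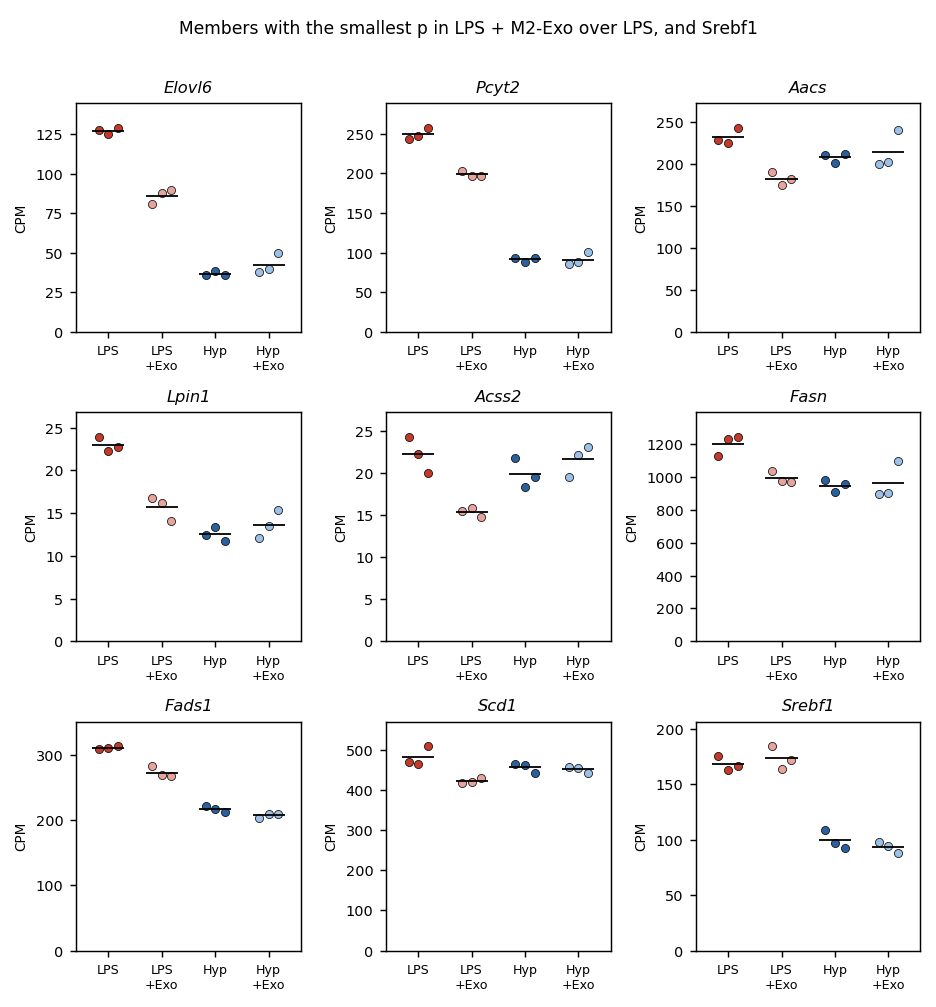
CPM in every library (points) and group mean (horizontal lines) of the 8 members with the smallest p in LPS + M2-Exo over LPS and of Srebf1, with the y axes starting at 0. The LPS + M2-Exo points lie below the LPS points in the 8 members and overlap them in Srebf1, and the Hyp and Hyp + M2-Exo points overlap in all but Fads1.

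Of 99 other genes of the pathway fixed as a list, 97 were in the table and 78 were tested here. Insig1, whose protein helps keep SREBP in the endoplasmic reticulum, is itself a target of SREBP. It fell by 0.31 on the log2 scale (adjusted p = 0.00662, edgeR), and no other of the 78 genes passed. Their median log2 fold change was 0.0095. None of the 16 genes of fatty acid oxidation tested passed (2 at an unadjusted p under 0.05, both higher). Of the sterol synthesis genes read beside the members, Idi1 fell by 0.51 and Hmgcs1 by 0.37 on the log2 scale (adjusted p = 0.00248 and 0.00346, edgeR), and Sqle did not pass (log2 fold change −0.26, adjusted p = 0.586, edgeR). In the same comparison 9 of 10 macrophage markers tested were lower, 7 of them at an unadjusted p under 0.05 and none passing, with a median log2 fold change of −0.32. Their part in the members' values was not tested.

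The second comparison asked the same of cells in hyperoxia, where no member passed in edgeR's test or in DESeq2. At an unadjusted p under 0.05, 4 members (9.3%) were lower and 0 were higher, against 4.65% and 3.83% of 13815 genes tested, of which 0.0507% passed in each direction. The libraries of the 2 groups did not overlap in 2 members (4.65%) that were higher and 5 (11.6%) that were lower, against 7.35% and 8.22% of all genes. The median log2 fold change over the members was 0.0037, and over all genes −0.0021.

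Slc25a1 had the smallest p, with 60.8, 58.0 and 60.1 CPM in Hyp and 56.4, 45.6 and 47.7 CPM in Hyp + M2-Exo (log2 fold change −0.25, SE 0.08, adjusted p = 0.544, edgeR). Agpat3, an acyltransferase of phosphatidate synthesis, was at 112, 110.0 and 109 CPM in Hyp and at 103, 96.7 and 104 CPM with M2-Exo (log2 fold change −0.11, adjusted p = 0.567, edgeR). Pnpla2, the main lipase of triacylglycerol, was at 69.6, 68.2 and 65.7 CPM in Hyp and at 59.99, 63.8 and 62.7 CPM with M2-Exo (log2 fold change −0.12, adjusted p = 0.575, edgeR). In these 3 genes the groups did not overlap, and Slc25a1 was lower with M2-Exo in both models. Me1 was at 123, 122 and 121 CPM in Hyp and at 117, 113 and 113 CPM in Hyp + M2-Exo (log2 fold change −0.09, adjusted p = 0.575, edgeR), again without overlap.

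Gpam, the mitochondrial enzyme that adds the first acyl chain to glycerol phosphate, was at 25.1, 27.0 and 28.0 CPM in Hyp and at 25.2, 22.7 and 23.9 CPM in Hyp + M2-Exo. Elovl5, which extends polyunsaturated chains, was at 146, 141 and 139 CPM in Hyp and at 152, 149 and 147 CPM with M2-Exo. Chpt1, which completes phosphatidylcholine, was at 18.9, 19.7 and 21.6 CPM in Hyp and at 23.2, 20.9 and 22.8 CPM with M2-Exo. Their log2 fold changes were −0.15, 0.07 and 0.16, and the adjusted p-values were 0.596, 0.602 and 0.602 (edgeR). Only for Elovl5 did the libraries of the 2 groups not overlap.

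The members that fell in LPS gave these values in hyperoxia. Elovl6 was at 36.2, 38.8 and 35.8 CPM in Hyp and at 37.9, 40.1 and 49.9 CPM in Hyp + M2-Exo (log2 fold change 0.21, 95% interval −0.0304 to 0.449, adjusted p = 0.603, edgeR). Aacs was at 211, 201 and 212 CPM in Hyp and at 200.5, 203 and 241 CPM with M2-Exo (log2 fold change 0.05). Pcyt2 was at 93.9, 87.7 and 93.6 CPM in Hyp and at 85.7, 87.7 and 100.4 CPM with M2-Exo (log2 fold change −0.0055). In all 3 genes Hyp + M2-Exo library 3 was the highest of the 6, and in Elovl6, Aacs, Fasn (1093 CPM) and Acly (563 CPM) it stood clear of the other 5.

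For the defining members of each step, Fasn was at 979, 906 and 953 CPM in Hyp and at 894, 902 and 1093 CPM in Hyp + M2-Exo, and Acaca was at 162, 139 and 147 CPM in Hyp and at 153, 150.3 and 156 CPM with M2-Exo. Scd1 was at 465, 462 and 441 CPM in Hyp and at 455, 455 and 442 CPM with M2-Exo, and Scd2 was at 667, 646 and 628 CPM in Hyp and at 648, 645 and 700.3 CPM with M2-Exo. The groups overlapped in all of these genes. Srebf1 was at 109, 97.2 and 92.6 CPM in Hyp and at 97.5, 94.1 and 88.3 CPM in Hyp + M2-Exo, and Plin2 was at 47.6, 44.6 and 54.4 CPM in Hyp and at 51.7, 47.6 and 48.4 CPM with M2-Exo. Their log2 fold changes ran from −0.09 for Srebf1 to 0.04 for Scd2, with adjusted p-values of 0.704 or above (edgeR), and the sign for Acaca, Fasn, Scd2 and Plin2 turned when single libraries were left out. Of 76 other pathway genes tested, 0 passed in edgeR and 8 had an unadjusted p under 0.05.

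Whether M2-Exo acted differently in the 2 models was tested as an interaction over all 12 libraries, and no member passed in edgeR's test. Elovl6 came closest, with a difference of −0.76 on the log2 scale between the M2-Exo change in LPS and that in hyperoxia (SE 0.119, adjusted p = 0.0739, edgeR). It passed without Hyp + M2-Exo library 1 or without library 3 (adjusted p = 0.0146 in each, edgeR) and when genes were not filtered on low counts (adjusted p = 0.0229, edgeR). Of the 43 members, 12 (27.9%) had an unadjusted p under 0.05, 11 of them with the lower change in LPS, against 9.78% of 14187 genes tested, of which 0.0352% passed. DESeq2 passed 4 members, and 67 of 14187 genes against 5 in edgeR. Differences for Aacs and Pcyt2 were −0.38 and −0.31 (adjusted p = 0.243 for both, edgeR), for Lpin1 and Acss2 −0.66 and −0.64 (adjusted p = 0.202 for both, edgeR), and for Fabp5 −1.06 (adjusted p = 0.281, edgeR). Fabp5 had only 14 to 26 counts in the hyperoxia libraries.

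Between the 2 injury models without M2-Exo, most members differed, as did most genes. Of 43 members tested 33 (76.7%) passed, and of 13805 genes 10465 did. Of 43, 24 (55.8%) were higher and 9 (20.9%) lower in LPS than in Hyp, while of 13805 genes tested 37.8% were higher and 38% lower in edgeR's test. The median log2 difference, LPS over Hyp, was 0.29 over the members, or 0.52 without the members that overlap another gene, and −0.0091 over all genes. All 8 elongation members passed, 5 higher and 3 lower, and so did 3 of 4 desaturases, all higher, while choline and ethanolamine phospholipid synthesis split into 4 higher and 3 lower of 9. More than 2-fold higher in LPS were 6 members, and more than 2-fold lower were 2. The share of all genes beyond 2-fold was not counted, and their median absolute log2 difference was 0.512.

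Fabp5 differed most, at 9.49, 11.1 and 10.8 CPM in LPS and at 0.582, 0.883 and 0.726 CPM in Hyp (log2 difference 3.84, SE 0.16, adjusted p = 3.02e-07, edgeR). Its Hyp libraries held only 14, 20 and 18 counts of it, so the size of the fold rests on low counts. Of the Fabp5 words of 50 bases, 5.48% occur in other genes. Scd2 was 4.14-fold higher, at 2637, 2675 and 2703 CPM in LPS and at 667, 646 and 628 CPM in Hyp (log2 difference 2.05, SE 0.0357, adjusted p = 1.49e-08, edgeR). Its paralogue Scd1, at 469, 463 and 508 CPM in LPS and at 465, 462 and 441 CPM in Hyp, did not pass (log2 difference 0.08, adjusted p = 0.133, edgeR). Per length, Scd2 was at 475 ± 2.85 FPKM in LPS and at 122 ± 3.39 FPKM in Hyp (SD, n = 3).

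Among the elongation enzymes Elovl6 was at 128, 125 and 129 CPM in LPS and at 36.2, 38.8 and 35.8 CPM in Hyp (log2 difference 1.79, SE 0.045, adjusted p = 3.54e-08, edgeR). Tecr was at 297, 307 and 329 CPM in LPS and at 134, 126 and 119 CPM in Hyp (2.47-fold higher, SE 0.0534 on the log2 scale, adjusted p = 2.77e-07, edgeR). Both were higher in every LPS library. Other elongation members differed the other way. Hacd2, a dehydratase of the elongation cycle, was at 18.0, 18.4 and 17.6 CPM in LPS and at 44.9, 46.2 and 45.1 CPM in Hyp (log2 difference −1.33, adjusted p = 2.09e-07, edgeR). Elovl7 was at 11.4, 10.6 and 8.69 CPM in LPS and at 20.6, 18.5 and 20.6 CPM in Hyp (log2 difference −0.96, adjusted p = 6.96e-05, edgeR).

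The enzymes of the ethanolamine and choline branches did not move together. Pcyt2 was at 243, 247 and 258 CPM in LPS and at 93.9, 87.7 and 93.6 CPM in Hyp (log2 difference 1.45, SE 0.0403, adjusted p = 5.43e-08, edgeR). Pcyt1b was at 27.8, 28.6 and 30.5 CPM in LPS and at 8.06, 9.23 and 8.91 CPM in Hyp (log2 difference 1.74, SE 0.0769, adjusted p = 3.94e-07, edgeR). Both genes, which encode enzymes that activate a head group, were higher in LPS, as was Chpt1 at the last step (log2 difference 0.93, adjusted p = 9.82e-06, edgeR). Pcyt1a, the more abundant gene for activation of choline, did not pass (log2 difference −0.60, adjusted p = 0.235, edgeR). Chka, a choline kinase at the entry to the choline branch, was lower, at 37.9, 33.7 and 39.7 CPM in LPS and at 80.3, 79.4 and 82.8 CPM in Hyp (log2 difference −1.12, SE 0.0649, adjusted p = 1.58e-06, edgeR). Etnk1, the ethanolamine kinase, and Pemt, which methylates phosphatidylethanolamine to phosphatidylcholine, were also lower (log2 difference −0.54 and −0.93, adjusted p = 3.07e-05 and 0.00121, edgeR). The other choline kinase, Chkb, was instead higher in LPS, at means of 42.1 CPM in LPS and 35.8 in Hyp (log2 difference 0.24, adjusted p = 0.0141, edgeR). Of its 50-base words 43.7% occur in other genes.

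Fads2 was at 199.96, 200.4 and 207 CPM in LPS and at 111, 107 and 100.3 CPM in Hyp (log2 difference 0.94, SE 0.0423, adjusted p = 4.29e-07, edgeR). Srebf1 was 1.70-fold higher in LPS (log2 difference 0.76, SE 0.061, adjusted p = 9.83e-06, edgeR), and Mlx, the partner of ChREBP, was lower (log2 difference −0.78, SE 0.148, adjusted p = 0.00158, edgeR). Acly and Slc25a1 were 1.74-fold and 1.87-fold higher (adjusted p = 6.2e-07 and 1.31e-06, edgeR), Fasn and Acaca 1.27-fold and 1.22-fold (adjusted p = 0.000296 and 0.00296, edgeR). Acss2, Me1 and Plin2 did not pass, and neither did Pcyt1a (log2 difference −0.60, SE 0.429, adjusted p = 0.235, edgeR). Of 77 other pathway genes tested, 38 were higher in LPS and 23 lower, and the sterol synthesis genes Idi1, Sqle and Hmgcs1 were higher, with log2 differences of 1.39, 2.01 and 2.65 (adjusted p = 2.79e-08, 5.15e-06 and 5.41e-09, edgeR). The summed levels of all 7 marker lists were also higher in every LPS library than in any Hyp library, among them fibroblast markers (814 to 843 CPM in LPS, 331 to 359 in Hyp, mostly Dcn), AT I markers (358 to 406 and 167 to 258 CPM) and general epithelial markers (170 to 178 and 143 to 153 CPM). Single AT II markers went both ways, with Nkx2-1 and Abca3 at means of 173 and 199 CPM in LPS and 39.7 and 151 CPM in Hyp, but Sftpb at 1.5 and 4.66 CPM and Etv5 at 36.2 and 51.5 CPM. Other lists also held markers lower in LPS. Aqp5 was at 76.9 CPM in LPS and 85.9 in Hyp, while the other AT I markers were higher in LPS. Of the endothelial markers, Pecam1 (0.307 and 2.07 CPM) and Kdr (0.145 and 0.928 CPM) were lower in LPS. The endothelial sum was mostly Tek (23.3 and 3.69 CPM), and the epithelial sum mostly Krt8 (157 and 143 CPM). The markers were not tested between the models, nor was their part in the members' differences.

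**Figure D3:**
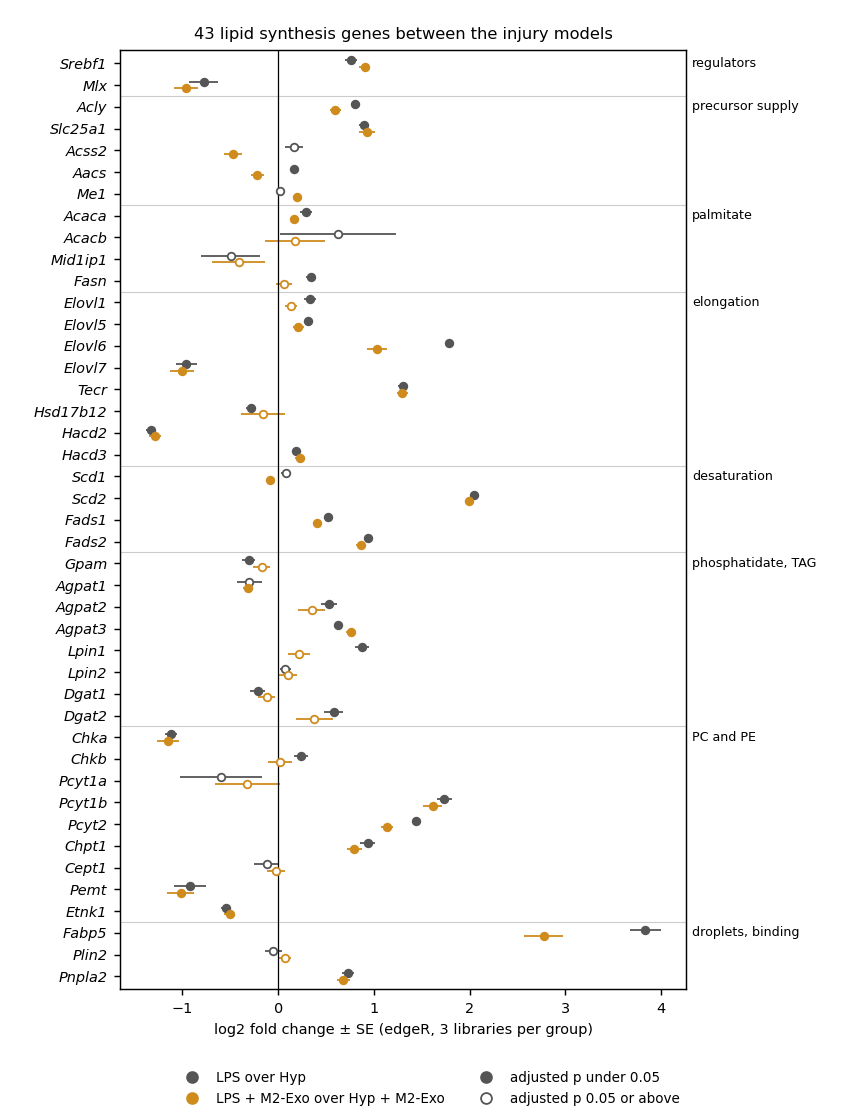
Log2 difference between the injury models (x axis, ± SE from edgeR) of the 43 members by role (y axis), without M2-Exo (grey) and with M2-Exo (orange), with filled points where the adjusted p is under 0.05. Fabp5 (3.84 and 2.78) and Scd2 (2.05 and 2.00) lie furthest right, and Hacd2 (−1.33 and −1.29) and Chka (−1.12 and −1.15) furthest left.

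**Figure D4:**
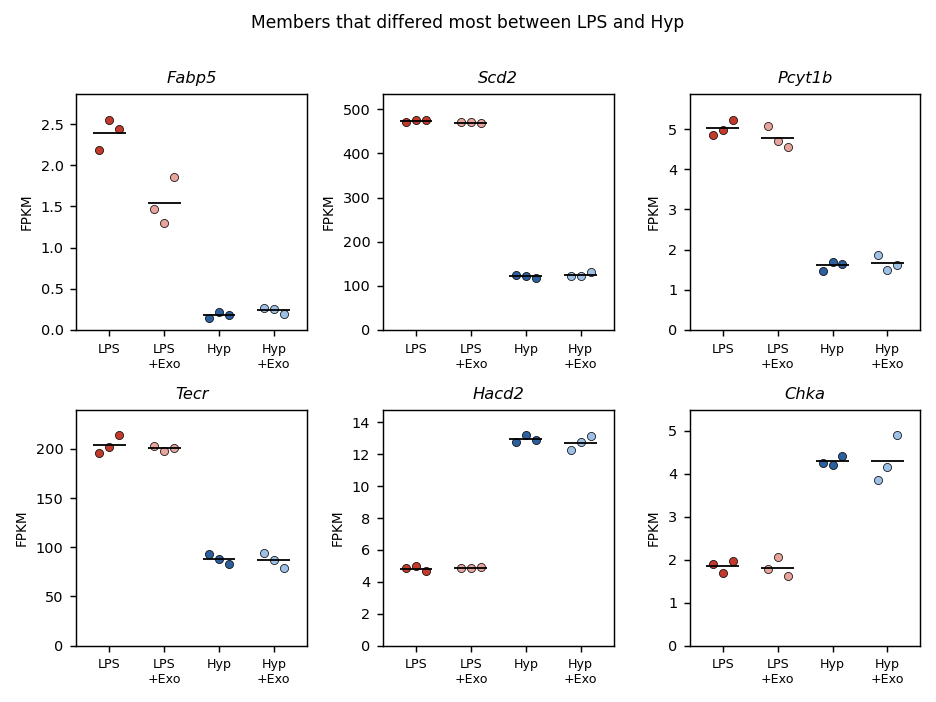
FPKM in every library (points) and group mean (horizontal lines) of 6 of the members that differed most between LPS and Hyp, with the y axes starting at 0. Fabp5, Scd2, Pcyt1b and Tecr are higher in all LPS and LPS + M2-Exo libraries, and Hacd2 and Chka are higher in all Hyp and Hyp + M2-Exo libraries.

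With M2-Exo present in both models, 18 members (41.9%) were higher and 10 (23.3%) lower in LPS + M2-Exo than in Hyp + M2-Exo, against 36.5% and 37.1% of 13660 genes tested, and the median log2 difference over the members was 0.16, or 0.072 when counts were scaled by library size alone, which put the median of all genes at −0.0991. In both directions together 28 of 43 members (65.1%) passed, and 10062 of the 13660 genes did. No library is shared with the comparison without M2-Exo. In both comparisons 17 members were higher in LPS, among them Srebf1, Scd2, Elovl6, Tecr, Pcyt2, Pcyt1b and Fabp5, and 6 were lower, namely Mlx, Elovl7, Hacd2, Chka, Pemt and Etnk1. Most genes passed in each comparison, and the share of all genes that did so in both was not counted. Of the members, Aacs alone passed in opposite directions, with log2 differences of 0.16 without M2-Exo and −0.22 with it (adjusted p = 0.00611 and 0.0246, edgeR).

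Fasn passed without M2-Exo and not with it, when it was at 1037, 975 and 970.2 CPM in LPS + M2-Exo and at 894, 902 and 1093 CPM in Hyp + M2-Exo (log2 difference 0.06, 95% interval −0.122 to 0.244, adjusted p = 0.508, edgeR). Lpin1, likewise, had a log2 difference of 0.88 without M2-Exo and of 0.22 with it (adjusted p = 1.13e-05 and 0.131, edgeR). The Elovl6 difference was 1.79 without M2-Exo and 1.03 with it. Whether these pairs of differences differ is the interaction given above, which no member passed. Scd1 was 1.06-fold lower in LPS + M2-Exo than in Hyp + M2-Exo (adjusted p = 0.046, edgeR), a call that was lost under 8 of 13 alternatives. Of 77 other pathway genes tested, 37 were higher and 24 lower.

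Replicate libraries of a group were close for most members, but 3 of 40 members with at least 50 counts on average (7.5%) had a step of 1.5-fold or more between libraries of a group, against 10.2% of 10938 such genes. Pcyt1a was at 8.45, 4.27 and 8.97 FPKM in LPS, 8.98, 9.10 and 8.67 in LPS + M2-Exo, 7.91, 20.0 and 7.09 in Hyp and 7.78, 20.1 and 7.81 in Hyp + M2-Exo. Library 2 was thus low in LPS and high in both hyperoxia groups, and the level in the other libraries lay between 7.09 and 9.10 FPKM. The M2-Exo fold change of Pcyt1a in hyperoxia was 0.03 on the log2 scale, with an SE of 0.486 (adjusted p = 0.988, edgeR). Without Hyp + M2-Exo library 2 the log2 difference of Pcyt1a between LPS + M2-Exo and Hyp + M2-Exo changed from −0.32 to 0.28 and passed (adjusted p = 0.00157, edgeR).

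Mid1ip1, which promotes the polymer form of acetyl-CoA carboxylase, was at 3.40, 3.58 and 7.89 FPKM in Hyp and at 3.89, 3.29 and 7.45 in Hyp + M2-Exo, so that library 3 was high in both, and lay between 3.19 and 3.53 FPKM in the 6 LPS and LPS + M2-Exo libraries. Hsd17b12, the first reductase of the elongation cycle, was at 22.4, 45.6 and 25.6 FPKM in LPS + M2-Exo and between 26.5 and 28.7 FPKM in LPS. Its level of 45.6 FPKM in LPS + M2-Exo library 2 was above those of the Hyp libraries (35.8, 36.2 and 34.8 FPKM). None of the 3 genes passed in an M2-Exo comparison. The cause of the steps was not tested.

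**Figure D5:**
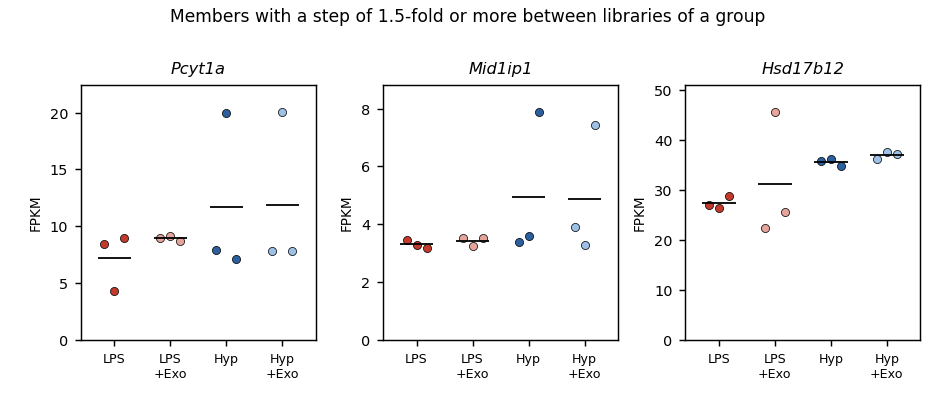
FPKM of Pcyt1a, Mid1ip1 and Hsd17b12 in every library (points) with the group mean (horizontal lines), with the y axes starting at 0. Single libraries stand apart: 20.0 and 20.1 FPKM for Pcyt1a, 7.89 and 7.45 FPKM for Mid1ip1 and 45.6 FPKM for Hsd17b12.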

How the data were processed

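Poly(A) RNA of 12 libraries of MLE-12 cells, 3 in each of 4 groups, was sequenced on an Illumina NovaSeq instrument. The authors aligned reads with HISAT2 (2.0.4) to mouse build GRCm38 and deposited a table of raw counts and FPKM per gene and library; the submitters' processing notes also name StringTie and edgeR. Whether counting used strand is not given in the sources used here. Counts were tested with edgeR (4.0.16, R 4.3.3) after TMM scaling and filterByExpr, by the quasi-likelihood test in a separate fit of 6 libraries per comparison, and the interaction in a fit of all 12. P-values were adjusted by Benjamini-Hochberg over all genes tested, with a threshold of 0.05, and intervals are 95%. CPM values use TMM factors over 12 libraries. The deposited FPKM were used only to compare levels between genes and to show steps between libraries. DESeq2 (1.42.0) and limma (3.58.1) served as an alternative and as a dependency of edgeR. Named members were those that passed with M2-Exo, filled to 8 per comparison by p, the 10 largest that passed between LPS and Hyp, and Srebf1, Acaca, Fasn, Scd1, Scd2, Pcyt1a and Plin2. Members and lists were chosen with earlier results of these data known. The scripts were tested on simulated data. Some genes read beside the members are not reported here.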

Additional observations from a re-analysis of the deposited data

Results flagged for a closer look

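Me1, the cytosolic malic enzyme, had fold changes of opposite sign with M2-Exo in the 2 models, with no overlap of libraries in either, and passed in neither (adjusted p = 0.407 in LPS and 0.575 in hyperoxia, edgeR). The log2 fold change was 0.0915 in LPS, where all 3 LPS + M2-Exo libraries were higher, and −0.0863 in hyperoxia, where all 3 Hyp + M2-Exo libraries were lower. Me1 was flagged because of this pattern. Of all genes, 5.5% were higher without overlap in LPS and 8.22% lower without overlap in hyperoxia. The share of genes with both was not counted. The interaction was 0.173 on the log2 scale and did not pass (adjusted p = 0.281, edgeR's quasi-likelihood test). Of the Me1 transcript words of 50 bases, 22.9% occur in other genes.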

How the results depend on the processing

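The count of members that fell with M2-Exo in LPS was 3, and it was 6 with DESeq2 (which passed 125 of all genes, against 25 in edgeR). The count of members was 1 in a fit of all 12 libraries, 13 (12 lower) at an unadjusted p under 0.05 and 1 to 3 when single libraries were left out. Their median log2 fold change of −0.066 ranged from −0.093 to −0.025 on leaving out single libraries. A replicate block in the fit left a count of 0 (adjusted p = 0.0544 for Elovl6, 0.208 for Pcyt2 and 0.209 for Aacs, edgeR). Over 14187 genes, deviations of libraries of the same number had correlations from −0.0189 to 0.0504, and those of unlike numbers from −0.0785 to 0.0364. Such values over all genes cannot settle whether libraries were paired. In both hyperoxia groups Pcyt1a was high in library 2 and Mid1ip1 in library 3. No source states a pairing. In hyperoxia the count was 0, or 4 at an unadjusted p under 0.05, and the median of 0.0037 ranged from −0.02 to 0.028 without single libraries. The interaction count of 0 became 1 with no filter on low counts, 4 with DESeq2, 12 at an unadjusted p under 0.05 and 0 to 1 without single libraries. Between the models, the LPS over Hyp median of 0.29 was 0.2 with library size alone, 0.26 with at least 10 counts in every library, 0.52 without the 17 members that overlap another gene and 0.24 to 0.32 without single libraries. With M2-Exo the median of 0.16 was 0.072 with library size alone, 0.13 with no filter and 0.22 without overlapping members. The count of 28 of 43 was 18 without overlapping members, when fewer members were tested. Directions turned for members that did not pass. On leaving out single libraries the hyperoxia fold changes ranged from −0.578 to 0.665 for Pcyt1a, −0.0489 to 0.0996 for Plin2, −0.011 to 0.0997 for Acaca, −0.0745 to 0.0806 for Fasn and −0.000396 to 0.0637 for Scd2, the LPS over Hyp differences from −0.12 to 0.0268 for Plin2 and −0.864 to 0.0313 for Pcyt1a, and Pcyt1a with M2-Exo from −0.557 to 0.276. With library size alone Scd1 was at −0.0125 in LPS over Hyp, and Fasn and Plin2 at −0.03 and −0.0156 with M2-Exo. The cause of these changes was not tested.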

Other observations

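Genes of fatty acid oxidation, the pathway that opposes synthesis, were higher in LPS than in Hyp for 10 of 15 tested and lower for 2, where 37.8% of all genes were higher and 38% lower (edgeR's quasi-likelihood test, adjusted over all genes). With M2-Exo present 11 of 16 were higher and 3 lower, against 36.5% and 37.1% of all genes. Their median log2 difference was 0.51 without M2-Exo and 0.6 with it. Read against the same shares, genes of SREBP processing and its control by LXR were higher for 7 and lower for 2 of 11 tested without M2-Exo, and higher for 8 and lower for 3 of 11 with it. Of 11 other acyltransferases tested, 3 were higher and 6 lower without M2-Exo, and 3 higher and 5 lower with it, which is near those shares.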
